A study of Mus musculus with 3 samples.

Results

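The hypertrophic cartilage and bone genes Runx2, Sp7, Ihh, Pth1r, Col10a1, Panx3, Ibsp, Spp1, Ifitm5 and Alpl were followed in sections of mouse embryonic axial skeleton. They were taken by their symbols, and 10 of the 32285 genes in each count table matched. The data come from Visium, a slide on which the RNA of a 10 µm tissue section is caught by an array of barcoded spots, each 55 µm across with 100 µm between centres. A spot is a small region that can hold several cells, or parts of cells. The 3 sections come from embryos at E11.5, E12.5 and, as the latest stage, E13.5 (days of embryonic age), so no stage has a replicate and differences between stages carry no test. For strain, genotype and number of embryos nothing is given in the sources used here, and no label names a treatment.

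In the skeleton of the trunk, cartilage forms first and bone follows. Chondrocytes in the middle of a cartilage template stop dividing, enlarge (hypertrophy) and switch their main collagen from Col2a1 to Col10a1. Runx2 and Sp7 are the transcription factors that carry cells into hypertrophy and into the osteoblast lineage. Ihh, secreted by chondrocytes that are about to enlarge, acts through the receptor Ptch1 and induces Pthlh, whose product signals back through the receptor Pth1r and delays hypertrophy. Ibsp, Spp1 and Alpl encode proteins of the mineralising matrix, and Ifitm5 and Panx3 encode membrane proteins of osteoblasts. In the axial skeleton the notochord, marked by the transcription factor T, runs through the forming vertebral bodies.

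The promoters of 5 of the genes are shown because a few of the richest E13.5 spots held their RNAs in different sets. Ibsp and Ifitm5 were high together in a first set, and Col10a1 and Ihh in a second. Spp1, a chromosomal neighbour of Ibsp, was high in spots of the first set and in spots with T. Ibsp lay in 36 of 208 Ifitm5 spots (17.3%, against 8.82% of all spots), and Col10a1 in 3 of 45 Ihh spots (6.67%, against 1.99%). Most spots with Ifitm5 or Ihh thus lacked the partner gene, although the shares were above those of all spots. Each sequence covers 250 bases before to 50 bases after the start of the gene, from RefSeq (GRCm38.p6, the assembly also called mm10), and runs 5′ to 3′ along the gene. Capitals mark the Runx core (TGTGGT or TGCGGT) and the CCAAT box, each searched on both strands, so that ACCACA and ATTGG are their forms on the other strand. The regions are chr5:104299037-104299336 (plus strand) for Ibsp, chr5:104434861-104435160 (plus strand) for Spp1, chr7:140950194-140950493 (minus strand) for Ifitm5, chr10:34389731-34390030 (plus strand) for Col10a1 and chr1:74951623-74951922 (minus strand) for Ihh.
Ibsp: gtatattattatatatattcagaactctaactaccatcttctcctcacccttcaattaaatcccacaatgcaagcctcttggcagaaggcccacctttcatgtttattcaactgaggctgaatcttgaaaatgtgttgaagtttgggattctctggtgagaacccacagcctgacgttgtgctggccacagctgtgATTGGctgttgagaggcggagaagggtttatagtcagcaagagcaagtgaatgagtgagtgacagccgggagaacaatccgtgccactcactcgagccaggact
Spp1: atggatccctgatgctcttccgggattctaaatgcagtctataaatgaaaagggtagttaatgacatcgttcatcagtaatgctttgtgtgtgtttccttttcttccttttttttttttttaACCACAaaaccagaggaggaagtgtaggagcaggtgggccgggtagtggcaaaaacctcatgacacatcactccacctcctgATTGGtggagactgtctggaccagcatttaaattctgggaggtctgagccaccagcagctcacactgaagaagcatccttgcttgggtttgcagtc
Ifitm5: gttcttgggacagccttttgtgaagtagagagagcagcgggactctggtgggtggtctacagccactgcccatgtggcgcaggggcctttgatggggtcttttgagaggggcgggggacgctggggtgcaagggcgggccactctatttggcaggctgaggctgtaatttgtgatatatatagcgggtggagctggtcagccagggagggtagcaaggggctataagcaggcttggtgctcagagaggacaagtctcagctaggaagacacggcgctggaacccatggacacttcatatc
Col10a1: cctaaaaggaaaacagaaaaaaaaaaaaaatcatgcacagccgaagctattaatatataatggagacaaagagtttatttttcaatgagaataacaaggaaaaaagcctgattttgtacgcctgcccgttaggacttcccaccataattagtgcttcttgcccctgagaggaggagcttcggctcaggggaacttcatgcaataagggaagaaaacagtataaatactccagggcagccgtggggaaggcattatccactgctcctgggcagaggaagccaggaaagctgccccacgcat
Ihh: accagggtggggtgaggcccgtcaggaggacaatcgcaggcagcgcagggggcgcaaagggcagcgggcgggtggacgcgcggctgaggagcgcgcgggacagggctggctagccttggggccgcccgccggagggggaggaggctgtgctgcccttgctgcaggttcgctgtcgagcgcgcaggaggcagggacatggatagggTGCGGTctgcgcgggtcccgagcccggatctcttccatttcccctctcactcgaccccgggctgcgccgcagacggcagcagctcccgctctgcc
Ibsp and Spp1 each carry a CCAAT box on the other strand, beginning 54 and 46 bases before the start, and Spp1 also has a Runx core 128 bases before it. Ihh holds a Runx core 45 bases before its start, while the windows of Ifitm5 and Col10a1 held neither motif. Across the 12 promoters listed for 8 of the genes, 3 (25%) held a Runx core, against 22.4% of the 32851 promoters searched. A CCAAT box lay in 3 (25%), against 37.4% of those searched. The search did not cover every chromosome. Panx3 and Sp7 had no entry.

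Counts are UMIs (unique molecular identifiers, tags that count each caught RNA molecule once). With spots under 1000 UMIs left out, the E11.5 section kept 1561 spots, the E12.5 section 1014 and the E13.5 section 1360. They held 44358610, 25490744 and 28750314 UMIs in that order, with medians of 27048, 24385.5 and 20943.5 UMIs per spot. Levels are given as CPM, the UMIs of a gene per 1000000 UMIs of the section, with exact Poisson intervals, and shares of spots with exact Clopper-Pearson intervals, all at 95%. These intervals cover counting error only. The sections do not hold the same organs. Liver genes (8 genes, such as Alb and Afp) summed to 819 CPM in the E11.5 section, 26.0 in the E12.5 and 118 in the E13.5 section, heart genes (7 genes) to 1657, 155 and 1923, and cartilage genes other than Col2a1 (16 genes) to 362.5, 1210 and 2943. The part of these differences in the stage values below was not tested. In whole spots, fewer cells of a kind and less RNA per cell cannot be told apart.

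At E11.5 and E12.5, 9 of the 10 genes were found, and Col10a1 was the gene not found. Ibsp, with 1 UMI in each section, and Panx3, with 6 UMIs at E11.5 and 3 at E12.5, were near the limit of detection. Of the remaining 7, Pth1r lay in most spots and Runx2, Spp1, Sp7, Ihh, Alpl and Ifitm5 in a minority. At E13.5 all 10 were found. Relative to E11.5, 9 of the 10 were at least 2-fold higher at E13.5 and 0 lower, with Pth1r the exception, where 14.6% of the 15232 genes with at least 50 UMIs over the 2 sections were higher and 7.96% lower. Relative to E12.5, 8 of the 10 were at least 2-fold higher and 0 lower (10.5% and 8.06% of genes), with Runx2 and Pth1r the exceptions. Between E12.5 and E11.5, 7 of the 10 had enough UMIs; Runx2 was higher (6.47% of genes were) and Alpl lower (3.4% were). The median gene stood at 1.06 times its E11.5 level at E13.5, and members of the cartilage list at a median of 15.2 times.

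**Figure D1:**
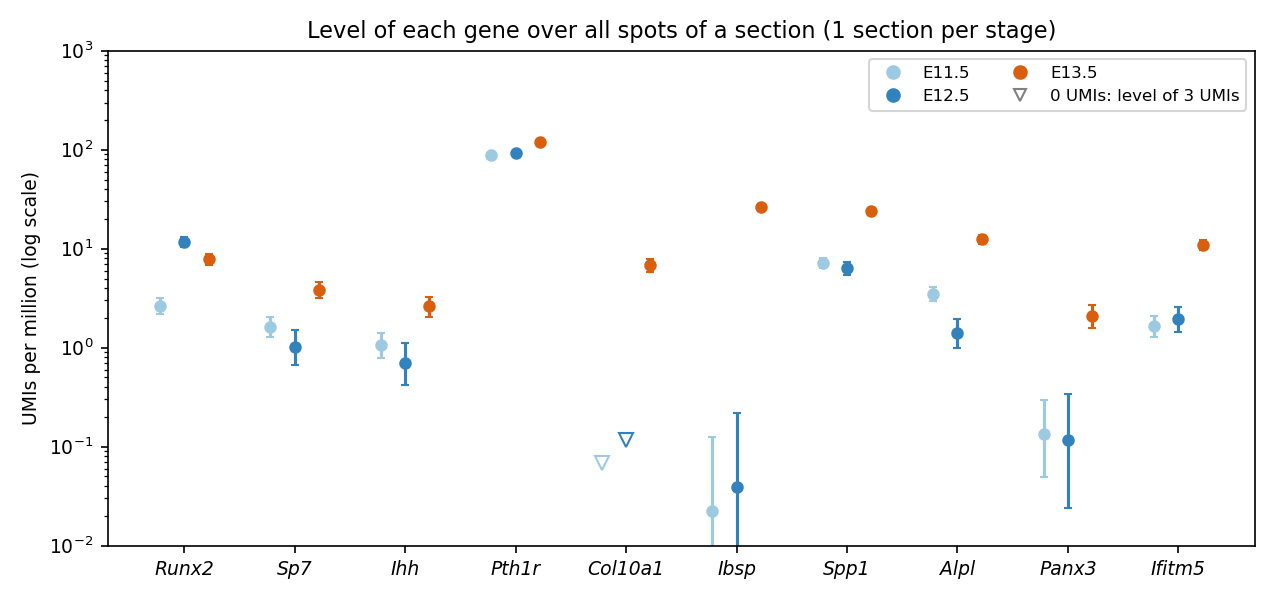
Level of the 10 genes over all spots of each section, in UMIs per 1000000 (CPM) on a log axis; points are single sections at 3 stages, bars are exact 95% Poisson intervals, and open triangles mark 0 UMIs at the level of 3 UMIs. Col10a1 and Ibsp stand at 6.78 and 26.4 CPM at E13.5 and at 0 or 1 UMI before, Runx2 is highest at E12.5, and Pth1r stays between 87.5 and 119 CPM.

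Runx2 (chr17:44495987-44814797) was the gene whose level was highest at the middle stage. It stood at 2.64 CPM at E11.5 (117 UMIs in 97 spots), 11.7 CPM at E12.5 (297 UMIs in 204 spots) and 7.79 CPM at E13.5 (224 UMIs in 194 spots). E12.5 was 4.42 times E11.5 (interval 3.55 to 5.52), and E13.5 was 0.669 times E12.5 (0.560 to 0.798). Its locus overlaps Supt3 and Runx2os3 in the annotation, and reads of overlapping genes were not separated here. Sp7 (chr15:102356603-102367035), which acts after Runx2 in osteoblasts, stood at 1.62 CPM at E11.5 (72 UMIs in 68 spots), 1.02 CPM at E12.5 (26 in 23) and 3.83 CPM at E13.5 (110 in 83). E13.5 was 2.36 times E11.5 (interval 1.74 to 3.22). Sp7 was thus lowest at the stage where Runx2 was highest, although the interval of its ratio between E12.5 and E11.5, 0.628 (0.385 to 0.996), ends close to 1.

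Ihh (chr1:74945315-74951672) was sparse at every stage, with 47 UMIs in 34 spots of the E11.5 section, 18 in 18 of the E12.5 and 75 in 45 of the E13.5 section. Its levels were 1.06, 0.706 and 2.61 CPM, and E13.5 was 2.46 times E11.5 (interval 1.69 to 3.62). Without the single richest spot of each section that ratio was 2.04, an alternative chosen after the values were seen. At E11.5 the highest level, 10.8 CPM (interval 6.42 to 17.1), was in the 78 spots that scored highest for gut and lung epithelium genes. The 78 spots that scored highest for notochord genes stood at 8.64 CPM (5.12 to 13.7). As 30 spots were in both sets, the 2 cannot be told apart here. Ihh is known as a signal of gut endoderm too. Pth1r (chr9:110722085-110747145), the receptor on the other arm of the loop, was by contrast broad. It held 3883 UMIs in 1260 spots of the E11.5 section, 2361 in 827 of the E12.5 and 3419 in 1170 of the E13.5 section, or 87.5, 92.6 and 119 CPM, with E13.5 at 1.36 times E11.5 (1.30 to 1.42). Its locus overlaps Gm35775. The ligand gene Pthlh stood at 1.53, 1.18 and 3.90 CPM from the earliest stage to the latest.

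Col10a1 (chr10:34389981-34397085, within the annotated span of Nt5dc1), the collagen of hypertrophic cartilage, had 0 UMIs at E11.5 and at E12.5. A count of 0, with 3 UMIs taken as its limit, allows up to 0.0676 CPM at E11.5 and 0.118 CPM at E12.5, and a share of up to 0.192% and 0.296% of spots. The exact 95% intervals reach a little higher, to 0.0832 and 0.145 CPM and to 0.236% and 0.363% of spots. At E13.5 it reached 6.78 CPM (interval 5.86 to 7.80) with 195 UMIs, at least 100.3-fold higher than E11.5 and at least 57.6-fold higher than E12.5 against a floor of 3 UMIs per section. The exact interval of the ratio begins at 80.8 against E11.5 and at 46.4 against E12.5. Without the richest spot of the section, which alone held 143 of the UMIs, the bound against E11.5 was 26.7-fold. Panx3 (chr9:37659902-37669222), a channel protein of maturing chondrocytes and osteoblasts, had 60 UMIs in 26 spots at E13.5, after 6 and 3 at the earlier stages. Its level of 2.09 CPM at E13.5 was 15.4 times that at E11.5 (interval 6.69 to 43.7), and 12.7 times without the richest spots.

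Ibsp (chr5:104299287-104311472), bone sialoprotein, had 759 UMIs in 120 spots at E13.5, after 1 UMI in each earlier section. There it stood at 26.4 CPM (interval 24.6 to 28.3). This was 1171 times the E11.5 level (209.5 to 46314) and 673 times the E12.5 level (120.4 to 26615). Spp1 (chr5:104435111-104441053), osteopontin, lies on the same chromosome with Mepe between them, yet was already in 168 spots at E11.5 (320 UMIs, 7.21 CPM) and 95 spots at E12.5 (162 UMIs, 6.36 CPM). At E13.5 it held 685 UMIs in 273 spots (23.8 CPM), 3.30 times E11.5 (2.89 to 3.78). Alpl (chr4:137741731-137796384), the phosphatase that frees phosphate for mineral, stood at 3.49 CPM at E11.5 (155 UMIs in 129 spots), 1.41 CPM at E12.5 (36 in 34) and 12.45 CPM at E13.5 (358 in 235). Its E12.5 level was 0.404 times that at E11.5 (interval 0.273 to 0.584), and at E11.5 it too was highest in the gut and lung epithelium spots (13.9 CPM). Ifitm5 (chr7:140948958-140950243), next to its relative Ifitm2, stood at 1.65 CPM (73 UMIs in 70 spots), 1.96 CPM (50 in 48) and 10.96 CPM (315 in 208), with E13.5 at 6.66 times E11.5 (5.15 to 8.71).

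The early spots were set against spots in which these genes should be rare. In the 10% of spots that scored highest for neuronal genes (156 of the E11.5 and 101 of the E12.5 section, deeper than the others with medians of 35106 and 33826 UMIs), Runx2 lay in 0.641% at E11.5, against 6.21% of all spots, and in 7.92% at E12.5, against 20.1% of all. Spp1 lay in 0.990% of neuronal spots at E12.5, against 9.37% of all, but in 9.62% at E11.5, against 10.8%. Its level in neuronal spots was below that in all spots at E12.5, at 0.282 against 6.36 CPM. At E11.5 it was above, at 12.03 CPM (63 UMIs in 15 spots) against 7.21 CPM. Sp7 lay in 1.92% at E11.5, against 4.36%, Ifitm5 in 2.56%, against 4.48%, Alpl in 4.49%, against 8.26%, and Ihh in 1.92%, against 2.18%. At E12.5 Sp7 lay in 0.990%, against 2.27%, and Ifitm5 in 3.96%, against 4.73%. The shares of Ihh at E11.5 and of Ifitm5 at E12.5 thus differed little from those of all spots. At E12.5 Ihh (2.97% against 1.78%) and Alpl (5.94% against 3.35%) had a higher share of neuronal spots than of all spots. Alpl was highest at E12.5 in the 51 spots of gut and lung epithelium, at 6.60 CPM (interval 2.65 to 13.6, 7 UMIs in 5 spots). Pth1r lay in 66.7% of neuronal spots at E11.5 and 71.3% at E12.5, but at 36.9 and 39.5 CPM, against 87.5 and 92.6 CPM in all spots.

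Other genes of the same programme were counted from a list of 33 genes of ossification. Of 27 with at least 50 UMIs over both sections, 14 were at least 2-fold higher at E13.5 than at E11.5 and 2 were lower, with a median ratio of 2.04, where 14.6% of all genes were higher and 7.96% lower. The largest were Omd, osteomodulin, at 1.81 CPM at E13.5 against 0.0676 at E11.5 (ratio 26.7, interval 8.66 to 134), the phosphate regulator Phex at 9.67 against 0.496 (19.5), the bone collagen Col1a1 at 2475 against 187 (13.2), the matrix protein Dmp1 at 1.84 against 0.158 (11.7) and Scin at 3.55 against 0.338 (10.49). Dlx6, a homeobox gene, was lower at 0.383 CPM against 2.34 (ratio 0.163). Genes of the last steps were scarce at E13.5: Bglap, osteocalcin, had 15 UMIs, Mmp13, the collagenase of late hypertrophic cartilage, had 11, and Phospho1 had 0. At E11.5 Bglap already had 28 UMIs and Mmp13 had 4, while Phospho1 had 0 in all 3 sections. The counts of Bglap and Phospho1 thus show no rise to E13.5. Of 13 genes of the Pthlh and hedgehog pathways 6 were at least 2-fold higher and 0 lower at E13.5, read against the same 14.6% and 7.96%. They were the hedgehog binding protein Hhip (ratio 6.55), the co-receptors Boc (2.62), Cdon (2.36) and Gas1 (2.20), Pthlh (2.54) and the acyltransferase Hhat (2.10), whereas the receptor and target Ptch1 stood at 49.7 CPM at E13.5 against 47.0 at E11.5.

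At E13.5 the number of spots with a gene differed from 26 for Panx3 to 1170 for Pth1r. Of the 1360 spots, Pth1r lay in 86.0% (interval 84.1 to 87.8), Spp1 in 20.1% (17.97 to 22.3), Alpl in 17.3% (15.3 to 19.4), Ifitm5 in 15.3% (13.4 to 17.3), Runx2 in 14.3% (12.4 to 16.2) and Ibsp in 8.82% (7.37 to 10.46). Sp7 lay in 83 spots (6.10%), Ihh in 45 (3.31%), Col10a1 in 27 (1.99%) and Panx3 in 26 (1.91%). Thinned to 5000 UMIs in the 1251 spots that deep, these shares were 42.7% for Pth1r, 6.92% for Spp1, 5.76% for Alpl, 5.04% for Ifitm5, 4.84% for Runx2, 3.83% for Ibsp, 2.25% for Sp7, 1.2% for Ihh, 0.915% for Panx3 and 0.696% for Col10a1.

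Most of these spots held a single UMI. Among the 27 Col10a1 spots 25 held 1 UMI, and the other 2 held 143 and 27. Ibsp had 1 UMI in 88 of its 120 spots, while 7 spots with at least 10 UMIs held 598 of its 759. The 10 richest spots held 91.3% of the Col10a1 UMIs, 81.0% of Ibsp, 73.3% of Panx3 and 53.3% of Ihh. By contrast they held 37.8% of Spp1, 33.6% of Sp7, 30.2% of Ifitm5, 23.7% of Alpl, 10.3% of Runx2 and 4.97% of Pth1r. Runx2 had no spot with more than 3 UMIs.

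**Figure D2:**
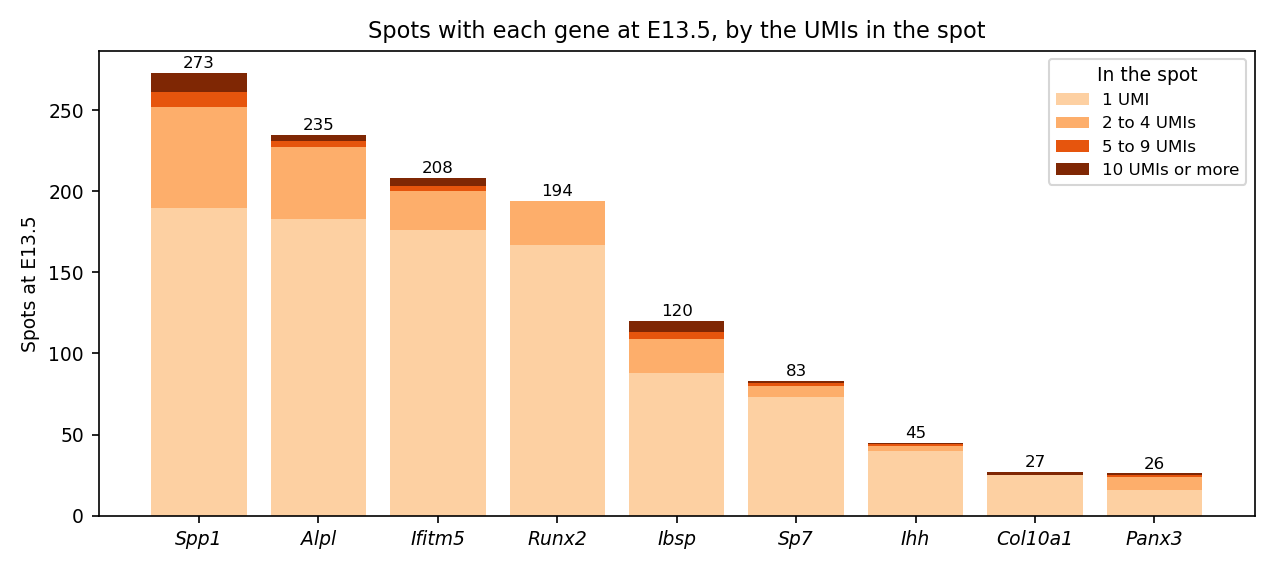
Number of E13.5 spots (of 1360) with each gene, stacked by the UMIs of the gene in the spot; Pth1r, in 1170 spots, is not drawn. Single UMIs make up most spots of each gene drawn, 25 of 27 for Col10a1 and 88 of 120 for Ibsp.

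Spots with single UMIs were compared with spots that scored highest for heart genes, where bone and cartilage genes should be rare, and for neuronal genes. The 68 spots that scored highest for heart genes, a region chosen after the values were seen, had a median of 20889 UMIs. Ibsp lay in 6 of them (8.82%, the same share as in all spots), Alpl in 14 (20.6%), Col10a1 in 2 (2.94%) and Sp7 in 3 (4.41%). Ibsp stood at 5.06 CPM there against 26.4 in all spots. Of these 68 spots 14 were also among the 68 that scored highest for liver genes. Runx2, Ihh and Panx3 had 0 UMIs in the 68 spots. Ifitm5 lay in 4 (5.88%) and Spp1 in 3 (4.41%), shares below those in all spots. In the 136 spots with the most neuronal RNA, Col2a1 lay in 136 of the 136 and stood at 1914 CPM, against 2601 in all spots. These spots were thus not poor in cartilage RNA and give no background for the genes. Alpl (26.5%), Ifitm5 (18.4%), Runx2 (16.2%), Sp7 (9.56%) and Col10a1 (4.41%) were there at or above their share in all spots. Below it were Ibsp (3.68% against 8.82%), Ihh (2.21% against 3.31%), Panx3 (1.47% against 1.91%), Spp1 (18.4% against 20.1%) and Pth1r (84.6% against 86.0%). Of these lower shares, only that of Ibsp had an interval that excluded the share in all spots. Ibsp stood at 1.73 CPM in the neuronal spots, against 26.4 in all spots.

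Counting spots with 2 UMIs or more left 866 for Pth1r, 83 for Spp1, 52 for Alpl, 32 each for Ibsp and Ifitm5, 27 for Runx2, 10 each for Sp7 and Panx3, 5 for Ihh and 2 for Col10a1. At E12.5 the same count left 603 spots for Pth1r, 60 for Runx2, 26 for Spp1, 3 for Sp7, 2 for Ifitm5, 1 for Alpl and 0 for Ihh, Ibsp, Panx3 and Col10a1. At E11.5 it left 907 for Pth1r, 47 for Spp1, 17 for Alpl, 15 for Runx2, 6 for Ihh, 4 for Sp7, 3 for Ifitm5 and 0 for Ibsp, Panx3 and Col10a1.

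Spots with several of Col10a1, Ibsp, Sp7, Panx3 and Ifitm5, grouped here as the 5 restricted genes, appeared at E13.5. The name is only a label: Ifitm5 and Sp7 lay in 18.4% and 9.56% of E13.5 neuronal spots, against 15.3% and 6.10% of all. Ifitm5 was highest in the spots that scored highest for endothelium genes at E11.5 (3.32 CPM, 8 UMIs) and E12.5 (6.60 CPM, 9 UMIs). Before E13.5 the most in a spot was 2 of these 5 genes, in 5 spots at E11.5 and in 2 spots at E12.5. At E13.5, 1001 spots held 0 of the 5, 290 held 1, 46 held 2, 11 held 3, 11 held 4 and 1 held all 5. Counting a gene only at 2 UMIs or more, 40 spots at E13.5 held 1 of the 5, 7 held 2, 4 held 3, 5 held 4 and 0 held all 5, while at E11.5 and E12.5 the most in a spot was 1, in 7 and in 5 spots. Of the 10 genes together, a spot held a median of 1 at E11.5 and E12.5 and 2 at E13.5, with up to 4 before E13.5 and up to 9, in 2 spots, there.

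The richest E13.5 spots were picked for their UMIs of these genes (at least 10 of Ibsp or of Col10a1, at least 2 of Ihh, or at least 4 of the 5 restricted genes), so their content is a description with no test. That some are rich in Ibsp and some in Col10a1 follows from this choice. In 7 spots Ibsp had 164, 141, 121, 98, 39, 18 and 17 UMIs. The same 7 spots, in the same order, had 16, 10, 21, 14, 3, 5 and 13 UMIs of Ifitm5, 12, 7, 12, 11, 2, 5 and 19 of Alpl, and 239, 168, 105, 512, 227, 24 and 121 of Col1a1. Col10a1 was 0 in 6 of them and 1 in the remaining spot, and Ihh was 0 in 6 and 1 in the other. Their Col2a1 ranged from 4 to 56 UMIs.

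The 2 spots rich in Col10a1 differed from these. The first held 143 UMIs of Col10a1, 22 of Ihh, 19 of Panx3 and 597 of Col2a1 in 22445 UMIs, and 0 of Ibsp. The second held 27 UMIs of Col10a1, 7 of Ihh, 3 of Panx3, 187 of Col2a1 and 5 of Ibsp in 12074 UMIs. Col1a1 had 13 and 18 UMIs in them, fewer than in each of the 7 Ibsp-rich spots. Each of the 15 spots picked held 0 UMIs of T. As T lay in 12.9% of all E13.5 spots (175 of 1360), this count does not set them apart.

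**Figure D3:**
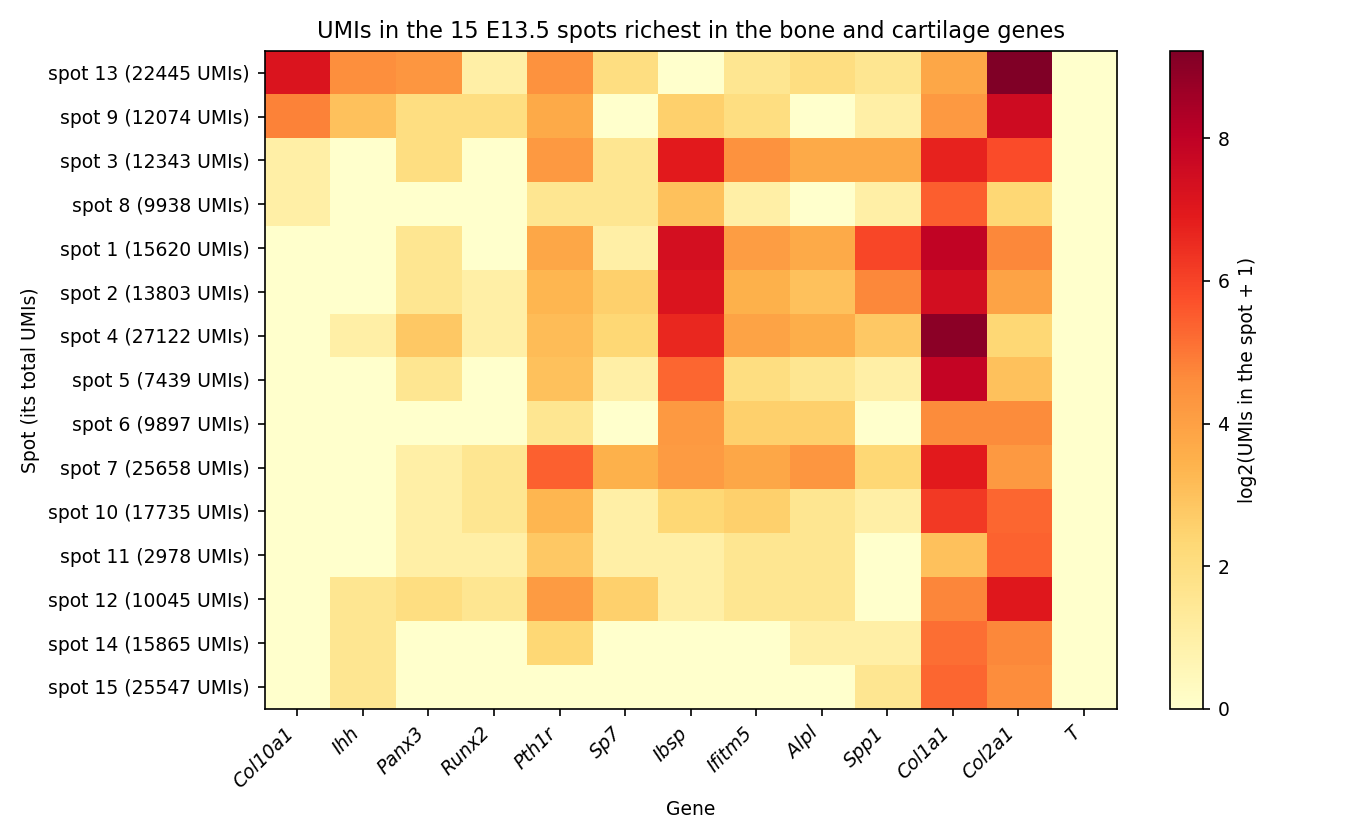
UMIs of each gene (columns) in the 15 E13.5 spots picked for their bone and cartilage genes, coloured by log2(UMIs + 1), with the total UMIs of each spot at the left. The Col10a1-rich spots at the top hold Ihh and 187 to 597 UMIs of Col2a1. The Ibsp-rich ones hold Ifitm5, Alpl and Col1a1 with 4 to 56 UMIs of Col2a1. T is 0 in all 15, and lies in 12.9% of all E13.5 spots.

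Genes of other tissues were also counted in these spots. The ossification list summed to 32516 CPM in the 7 Ibsp-rich spots and 6402 CPM in the 2 Col10a1-rich spots, against 9029 CPM over all spots of the section, and the cartilage list to 3396 and 24653 CPM, against 2943. Liver genes, 8 of 8 found in either set, summed to 1591 CPM (spots from 0 to 5641) and 1854 CPM (1337 and 2816), against 118 over all spots. Red cell genes, 8 of 8 found, summed to 16491 CPM (1344 to 57370) and 61763 CPM (39296 and 103528), against 7809. A single Ibsp-rich spot, the one with 98 UMIs of Ibsp, held 153 of the 178 liver UMIs and 1556 of the 1845 red cell UMIs of the 7. Without it the other 6 stood at 295 CPM for liver genes and at 3410 CPM for red cell genes, the second below the level of the section, whereas their ossification list stayed at 30002 CPM. Among the 68 spots of the section that scored highest for liver genes, 24 (35.3%) held Ibsp, at 143 CPM. Of 8 osteoclast genes 5 were found in the Ibsp-rich spots and summed to 295 CPM (0 to 512), against 51.2 over all spots. The part of liver and blood RNA in these profiles was not tested.

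Likeness over the 1360 spots of E13.5 followed the same split. It is given as Pearson's r of log2(UMIs per 10000 + 1) among 13590 genes, as a description in which spots share depth and tissue. Ifitm5 was the gene most like Ibsp (r = 0.607), before Dmp1 (0.594) and Alpl (0.512), and Ibsp was in turn the gene most like Ifitm5, Alpl, Panx3 (0.480) and Sp7 (0.411). Col10a1 was most like Ihh (0.528), then Mpo (0.474), a myeloid enzyme, and Panx3 (0.469). Without the 9 spots rich in Ibsp or Col10a1 the values were 0.220 for Ibsp with Ifitm5, 0.204 for Ibsp with Alpl, 0.0415 for Ibsp with Dmp1, -0.0039 for Col10a1 with Ihh, 0.119 for Col10a1 with Mpo and -0.011 for Col10a1 with Panx3, so these likenesses rest on those spots.

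Pth1r and Runx2 followed cartilage instead. Pth1r was most like Col11a2 (r = 0.638), Wwp2 (0.619) and Comp (0.609), and the first of these was 0.638 without the 9 spots too. Runx2 was weakly like Comp (0.267), Mia (0.260) and Matn4 (0.250). Spp1 was like notochord genes, T first (0.610), then Car3 (0.581) and Krt8 (0.506). Among the 10 genes most like the mean of the 5 restricted genes were Sgms2 (0.557), Alpl (0.552), Dmp1 (0.528), Smpd3 (0.412), Ihh (0.308), Apoa2 (0.283), Col22a1 (0.278), Dlx5 (0.265) and Apoa1 (0.255), of which Apoa1 and Apoa2 encode liver apolipoproteins.

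Co-detection with at least 1 UMI of Col2a1 separates little, since Col2a1 lay in 92.6% of all spots at E11.5, in 96.2% at E12.5 and in 99.7% at E13.5. At E13.5 every spot with Runx2, Sp7, Ihh, Col10a1, Ibsp, Spp1, Alpl, Panx3 or Ifitm5 also held Col2a1, as did 1168 of the 1170 Pth1r spots. At E12.5 the shares were 198 of 204 Runx2 spots, 94 of 95 Spp1 spots, 47 of 48 Ifitm5 spots and 804 of 827 Pth1r spots, and all of the 34 Alpl, 23 Sp7, 18 Ihh, 3 Panx3 and 1 Ibsp spots. Ihh at E11.5 stood apart, with Col2a1 in 26 of 34 spots (76.5%, interval 58.8 to 89.3), and 39.2% of Ihh spots against 63.9% of all spots after thinning to 5000 UMIs. There Runx2 (94 of 97) and Sp7 (66 of 68) lay with Col2a1 in 96.9% and 97.1% of their spots, and in 79.1% and 74.7% after thinning. At least 10 UMIs of Col2a1 were found in 72.0% of all E13.5 spots. The share was 93.3% of Ihh, 89.7% of Runx2, 82.8% of Spp1, 81.25% of Ifitm5 and 80.8% of Panx3 spots. It was 80.7% of Sp7, 74.3% of Pth1r, 73.6% of Alpl, 70.8% of Ibsp and 51.9% of Col10a1 spots. At E13.5 the median Col2a1 level in spots with a gene, in UMIs per 10000, was highest for Ihh (33.3), Runx2 (21.9) and Sp7 (19.5) and lowest for Ibsp (9.95) and Col10a1 (5.50), against 9.29 in all spots. The Col10a1 median comes mostly from spots with 1 UMI of it, 25 of the 27. The 2 spots with 170 of its 195 UMIs were rich in Col2a1, with 597 of 22445 and 187 of 12074 UMIs.

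To ask whether the genes rise with Col2a1, the spots of each section were ranked by Col2a1 UMIs per 10000 and divided into 4 equal bins. The top bin and the bottom bin were compared over the 3 sections with edgeR's quasi-likelihood test with the section as block, in which the replicates are sections of different stages. Enough UMIs for the test were found for 8 of the 10 genes. Of these 5 were higher in the top bin and 0 lower at an adjusted p under 0.05, where 9.37% of 14890 genes were higher and 11.3% lower. The 5 were Runx2, Sp7, Pth1r, Spp1 and Ibsp, of which Ibsp rests on E13.5 alone and on a few spots. Without the 9 E13.5 spots rich in Ibsp or Col10a1, an alternative chosen after the values were seen, 4 were higher, and Ibsp was not among them. The median log2 fold change of the 8 was 1.34, against 0.002 over all genes.

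Sp7 was the most even of the 5 across sections, at 3.15 CPM in the top and 1.07 in the bottom bin at E11.5, 2.48 and 0.597 at E12.5, and 9.04 and 1.83 at E13.5 (log2 fold change 1.90, edgeR adjusted p = 0.00566, section log2 ratios 1.91 ± 0.38 SD, n = 3). Pth1r stood at 128 CPM in the top and 60.3 in the bottom bin at E11.5, 126 and 67.8 at E12.5, and 313 and 75.4 at E13.5 (log2 fold change 1.32, edgeR adjusted p = 0.0061). Runx2 stood at 4.40 CPM in the top and 1.16 in the bottom bin at E11.5, 14.9 and 9.40 at E12.5, and 23.8 and 1.95 at E13.5 (1.90, edgeR adjusted p = 0.0219). Thus at E12.5, where Runx2 is highest as a whole, its bottom bin held it too. For these 3 genes the top bin was the higher one in 3 of 3 sections.

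Spp1 stood at 7.76 CPM in the top and 7.10 in the bottom bin at E11.5, 14.3 and 1.64 at E12.5, and 96.2 and 6.87 at E13.5 (log2 fold change 2.28, edgeR adjusted p = 0.0373), so its E11.5 values are level. Ibsp had 0 UMIs in both bins at E11.5 and E12.5. At E13.5 it stood at 40.8 CPM in the top and 14.99 in the bottom bin (log2 fold change 1.35, edgeR adjusted p = 0.0214), where 1 spot held 121 of the 149 UMIs of the top bin and 1 spot 98 of the 131 of the bottom bin. Without the 9 rich spots it stood at 6.38 and 3.79 CPM (0.65, edgeR adjusted p = 0.441). Its highest level there was not in the top bin but in the next one down, at 55.4 CPM. Ihh lay on opposite sides at different stages, a difference that was not tested. It stood at 0.210 CPM in the top and 2.23 in the bottom bin at E11.5, 1.42 and 0.597 at E12.5, and 13.4 and 0.458 at E13.5, and did not pass (1.32, edgeR adjusted p = 0.434). The 2 Col10a1-rich spots held 29 of its 49 UMIs in the E13.5 top bin, and without the 9 rich spots it stood at 5.55 CPM in the top and 0.344 in the bottom bin there. Ifitm5 (1.02, edgeR adjusted p = 0.0604) and Alpl (0.13, edgeR adjusted p = 0.855) did not pass either. Col10a1 and Panx3 were below the count filter. At E13.5 Col10a1 had 173 UMIs in the top bin, 170 of them in the 2 rich spots, and 8 in the bottom bin, and Panx3 had 35 and 10. Without the 9 rich spots Col10a1 stood at 0.555 CPM in the top and 0.918 in the bottom bin, and Panx3 at 2.78 and 0.459.

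**Figure D4:**
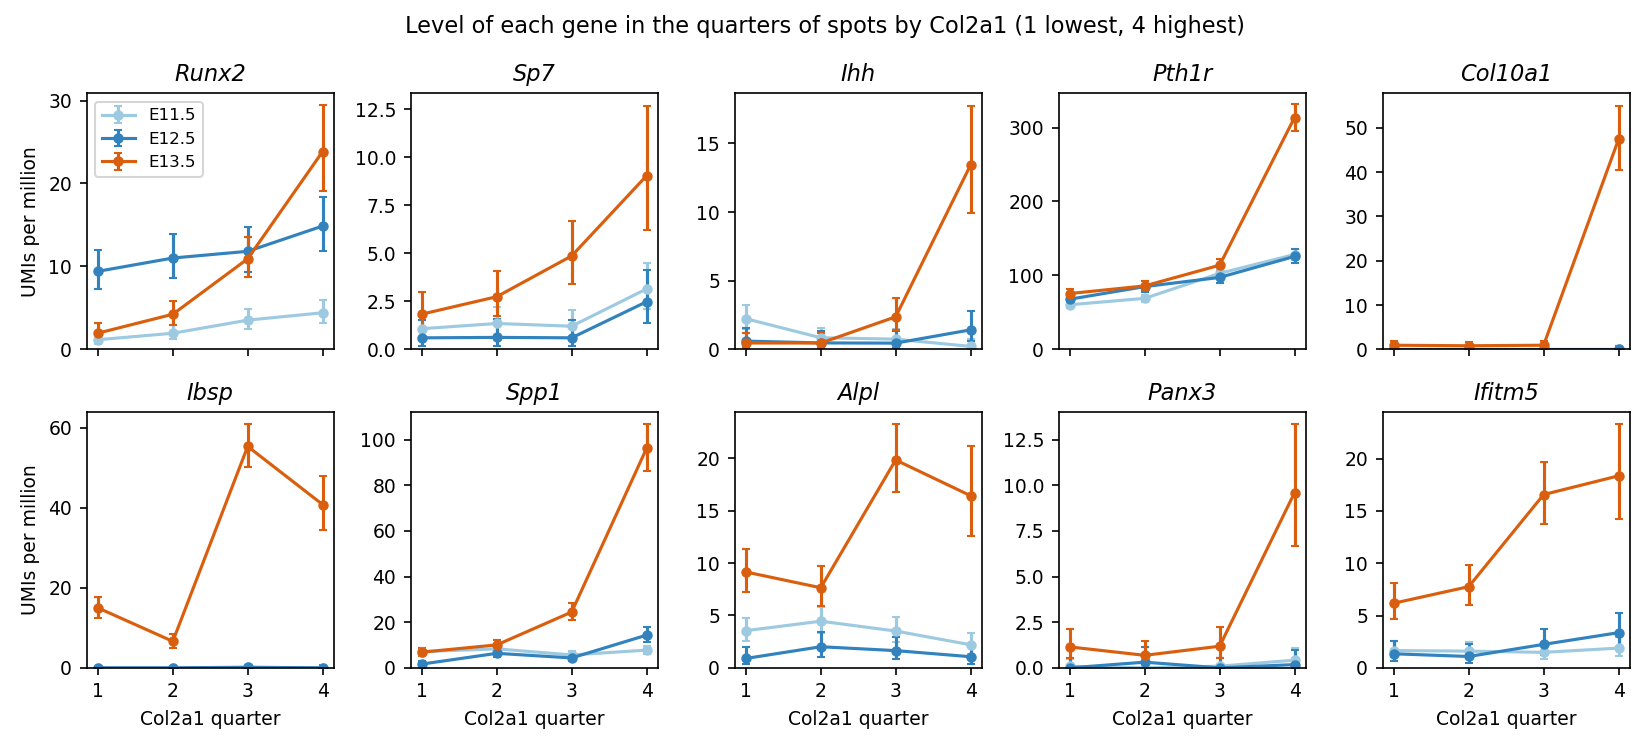
Level of each gene in UMIs per 1000000 in 4 equal bins of spots ranked by Col2a1 within a section, from lowest (1) to highest (4); lines are the 3 sections and bars exact 95% Poisson intervals. At E13.5 Runx2, Sp7, Ihh, Pth1r, Spp1 and Col10a1 are highest in bin 4, whereas Ibsp and Alpl peak in bin 3 at 55.4 and 19.9 CPM.

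The calls depended on single sections and on the bins. Without E12.5, 0 of the 10 genes were called, with adjusted p-values of 0.0508 for Runx2, 0.0599 for Pth1r and 0.0791 for Sp7, and with the top 10% of spots against the rest Pth1r alone was called. At E13.5 the top bin was also shallow, with a median of 9337.5 UMIs per spot against 25604 in the bottom bin. Of 25 ossification genes tested 6 were higher and 1 lower (median 0.42): the actin-severing protein Scin (4.13), the Wnt antagonist Wif1 (1.98), the homeobox gene Dlx5 (1.84), Sparc (0.83), the cadherin Cdh11 (0.61) and Vegfa (0.42) were higher, and Phex (-1.33) was lower in 3 of 3 sections. Col1a1 had a log2 fold change of -0.07 (edgeR adjusted p = 0.861). Of 13 Pthlh and hedgehog pathway genes 7 were higher and 0 lower (median 0.63). They were the hedgehog targets Gli1 (2.17), Ptch1 (1.59) and Hhip (1.38), the transducers Smo (0.81), Gli3 (0.69) and Gli2 (0.63) and the co-receptor Boc (0.62). Ptch1 stood at 91.2 CPM in the top and 32.7 in the bottom bin at E11.5, 135 and 28.4 at E12.5, and 100.3 and 39.6 at E13.5. Pthlh had a log2 fold change of 0.24 (edgeR adjusted p = 0.826).

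T was found in a larger share of Spp1 spots than of all spots, by more than counting error at E12.5 and E13.5. T lay in 103 spots of the E11.5 section, 120 of the E12.5 and 175 of the E13.5 section. Among Spp1 spots T was found in 14 of 168 at E11.5 (8.33%, against 6.60% of all spots), 24 of 95 at E12.5 (25.3%, interval 16.9 to 35.2, against 11.8%) and 62 of 273 at E13.5 (22.7%, interval 17.9 to 28.1, against 12.9%). After thinning to 5000 UMIs the shares of Spp1 spots with T were 4.95%, 25.6% and 23.3%, against 1.84%, 3.93% and 4.60% of all spots. At E13.5 the other genes lay with T in 154 of 1170 Pth1r spots (13.2%), 27 of 194 Runx2 spots (13.9%), 29 of 235 Alpl spots (12.3%), 24 of 208 Ifitm5 spots (11.54%), 12 of 120 Ibsp spots (10.0%) and 8 of 83 Sp7 spots (9.64%), each with an interval that includes the 12.9% of all spots. T was found in 4 of 27 Col10a1, 4 of 26 Panx3 and 3 of 45 Ihh spots. At E12.5, 11 of 48 Ifitm5 spots held T (22.9%, interval 12.03 to 37.3), and this interval too excluded the 11.8% of all spots, narrowly. T also lay in 17 of 204 Runx2 spots, 110 of 827 Pth1r spots, 5 of 34 Alpl, 4 of 23 Sp7 and 2 of 18 Ihh spots there.

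The 12 spots with at least 10 UMIs of Spp1 at E13.5 fell into 2 kinds. In 9 of them T was found, with 11 to 31 UMIs of T, 6 to 26 of the keratin Krt8 and 54 to 192 of the carbonic anhydrase Car3. Ibsp was at 0 in 8 of these 9 and at 1 in the other, and Ifitm5 at 0 in all 9. The remaining 3 held 0 UMIs of T, at most 1 of Krt8, and 164, 141 and 121 UMIs of Ibsp, and are the 3 spots richest in Ibsp. Spp1 itself had 13 to 26 UMIs in the 9 spots and 60, 25 and 12 in the 3. Its likeness to T was still 0.499 without the 12 spots.

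**Figure D5:**
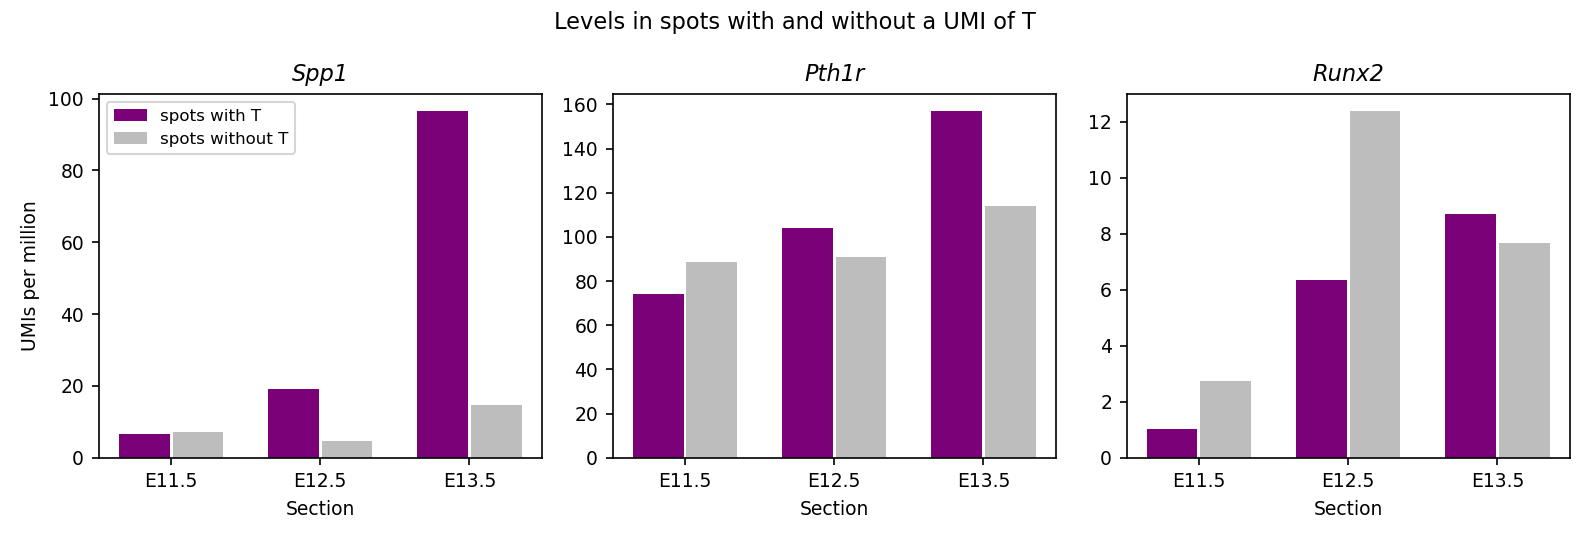
Level of Spp1, Pth1r and Runx2 in UMIs per 1000000, as bars from 0, in spots with at least 1 UMI of T (left bar of each pair) and in spots without (right bar), per section. Spp1 stands at 96.6 against 14.7 at E13.5 and 19.1 against 4.56 at E12.5, and is level at E11.5 with 6.77 against 7.25.

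Spots with T (median depth 17149 UMIs at E13.5, against 20943.5 in all spots) and spots without were then compared over the 3 sections in the same kind of fit. Spp1 stood at 6.77 CPM with T and 7.25 without at E11.5, 19.1 and 4.56 at E12.5, and 96.6 and 14.7 at E13.5. Its log2 fold change was 1.82, with an edgeR adjusted p of 0.281 and an unadjusted p of 0.00323, higher in 2 of 3 sections. edgeR called 0 of 7 genes tested higher and 0 lower, of which 1, Spp1, had an unadjusted p under 0.05, and DESeq2 also called 0. Of 14904 genes, 0.148% were higher and 0.0134% lower, and 1071 had an unadjusted p under 0.05. Without E11.5 Spp1 passed (2.45, adjusted p = 0.00546), as it did without E12.5 (1.86, adjusted p = 0.0291), and with T defined by at least 2 UMIs its log2 fold change was 3.89 (adjusted p = 2.5e-05). Without E13.5 it did not (1.08, adjusted p = 0.598), and in all it passed in 4 of 10 alternatives and was higher in each of the 10. At E11.5, at least 2 UMIs of T gave 13.8 CPM of Spp1 (7 UMIs), against 7.14 in the other spots. Spp1 was highest at E11.5 in the 78 spots that scored highest for notochord genes, at 24.5 CPM (interval 18.2 to 32.2). The gut and lung epithelium spots followed at 21.1 CPM, and these 2 sets shared 30 spots.

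Runx2 had a log2 fold change of -0.54 (edgeR adjusted p = 0.788), at 1.02 CPM with T and 2.75 without at E11.5, 6.36 and 12.4 at E12.5, and 8.73 and 7.67 at E13.5. Pth1r stood at 157 CPM with T and 114 without at E13.5 (0.14, edgeR adjusted p = 0.869). With T defined by at least 2 UMIs, Pth1r stood at 92.6 CPM against 87.5 at E11.5, 121 against 91.6 at E12.5 and 311 against 115 at E13.5. It was called in 0 of 10 alternatives. Ibsp, not tested for want of UMIs, had 13 UMIs (4.05 CPM) in E13.5 spots with T and 746 (29.2 CPM) in those without, and Col10a1 had 4 (1.25 CPM) and 191 (7.48 CPM). Both rest on the rich spots above, none of which held T, a gene found in 12.9% of all E13.5 spots. Of 24 ossification and 13 Pthlh and hedgehog genes tested, 0 were higher and 0 lower in spots with T.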

How the data were processed

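The deposited files hold raw UMI counts per gene and spot for 3 sections, which the authors made with Space Ranger 1.2.0, per the file headers. The submitters' processing notes list STAR and mm10. Which gene annotation and which spot selection were used is not given in the sources used here. Stages were taken from the sample titles. Spot positions and images were not used. The sections share 434, 704 and 696 barcodes pair by pair, since the barcodes mark array positions. The 10 genes, the gene lists and the tests were chosen with earlier results of these data known.

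Spots with at least 1000 UMIs were kept, which dropped 2, 0 and 5 spots from the earliest stage to the latest; no doublet caller applies. Stage ratios have exact conditional binomial intervals, and a gene counted at 2-fold or more with at least 50 UMIs over both sections. Thinned shares are expected values at 5000 UMIs (hypergeometric). For the tests, UMIs were summed into 12 sums (3 sections by 4 bins of Col2a1) or 6 sums (spots with and without T) and fitted with edgeR 4.0.16 (filterByExpr, TMM, glmQLFit, glmQLFTest), the section as block, and Benjamini-Hochberg adjustment over all genes with an adjusted p under 0.05. A pseudocount of 0.5 UMI entered the log2 ratios per section. The section pairs the sums because they come from the same tissue. The p-values set differences against the scatter over 3 sections of 3 stages, not over embryos of 1 stage. DESeq2 1.42.0 was the other tool. The steps were tested on simulated data.

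All 10 genes are named; from each list, up to 6 genes are named by the largest ratio of E13.5 to E11.5, and Bglap, Mmp13, Phospho1, Ptch1 and the called genes were named after their values were seen; some items are not reported here. Tissue scores are mean log2(UMIs per 10000 + 1) over a list, with the top 5% of spots (10% for neuronal genes). Sequences came from RefSeq tables for GRCm38.p6. Versions were R 4.3.3 and Python 3.11.15, with pandas 2.3.3, numpy 2.4.6, matplotlib 3.10.9 and scipy 1.17.1.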

Additional observations from a re-analysis of the deposited data

How the results depend on the processing

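The stage counts (9, 8, 1 and 1 of the 10 genes at least 2-fold apart) stayed within 1.5 times with spots of at least 5000 UMIs, without globin genes in the total, and without the richest spot of each gene, the last chosen after the data were seen. In the comparison of Col2a1 bins, 5 genes were higher. Without the replicate block (the section term) 0 were, with the top 10% of spots 1 was, and with a section left out between 0 and 3 were; over all genes the counts of 1395 higher and 1686 lower became 21 and 9 without the block, 430 and 829 with the top 10%, 150 and 96 without E12.5 and 367 and 409 without E11.5. Without the 9 rich E13.5 spots, chosen after the data were seen, 4 genes were higher here and 0 by T. In the comparison by T, 0 genes were higher and 0 lower. Leaving out a section gave between 0 and 1 higher (Spp1) and between 0 and 1 lower, no filter beyond 1 UMI gave 1 higher (Spp1, adjusted p = 0.000189) and 1 lower (Ibsp), and at least 2 UMIs of T gave 1 higher. Over all genes the 22 higher and 2 lower became 0 and 0 without the block, 59 and 7 with DESeq2, 133 and 160 without the filter, 267 and 349 with at least 2 UMIs of T, and 73 and 33 without E12.5; 7 were lower without E11.5. The cause of these shifts was not tested. Among genes found in at least 10 spots, those with a T share above that of all spots numbered 2 at E11.5 and 5 at E13.5, and 4 and 3 when T needed 2 UMIs. No direction of a called gene reversed under any alternative run.

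One section per stage limits each stage value. Below about 3 UMIs per section, 0.0676 CPM at E11.5 and 0.118 CPM at E12.5, absence and low expression cannot be told apart.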
